A study of Arabidopsis thaliana with 12 samples.

Results

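A group of 84 loci differed between the shoots of cdk8-1 and of Col-0 in the same direction at both sulfate supplies, 30 of them higher and 54 lower in cdk8-1. They were chosen from the measured values. A locus entered when its mean over the 12 libraries was at least 1 transcript per 1000000 (TPM) and its mean log2(TPM + 1) differed between the genotypes by at least 1 in the same direction at each supply. All 3 cdk8-1 values also had to lie outside the range of the Col-0 values at each supply. Of 32833 loci listed, 19127 reached the minimum, and 31 (0.162%) met the rule as higher and 62 (0.324%) as lower. Among these, 1 higher and 8 lower loci stood on a list of 10 named loci that was set aside, CDK8 itself among them, and they are not described further. Because the genotype differences chose the members, those differences are given below as a description, with no test.

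The RNA came from shoots cut from 10-day-old Arabidopsis thaliana seedlings on agar plates with washed agar. Col-0 is the laboratory wild type, and cdk8-1 is a mutant of the gene CDK8. Plates held either 1.5 mM magnesium sulfate or 0 mM of it, with magnesium chloride in its place, so that chloride also differed between the supplies. Each of the 4 combinations of genotype and supply held 3 libraries. The 4 groups are called Col-0 with sulfate, cdk8-1 with sulfate, Col-0 without sulfate and cdk8-1 without sulfate. The labels name a single mutant line and no complemented line, and do not say whether replicates came from separate plates or cultures, so that p-values measure only the spread between these samples.

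CDK8 is the kinase of a module that binds reversibly to Mediator, the complex that links transcription factors to RNA polymerase II. With cyclin C and the large Mediator subunits of that module, it can dampen or promote transcription, depending on the gene. In Arabidopsis it is known for roles in defence, in hormone and stress responses and in retrograde signalling from mitochondria. Nicotianamine synthases, ferritins, NAC and ERF transcription factors and calmodulin-like proteins, all of which occur among the members, act in iron handling and in stress signalling.

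The mutant label was first checked on CDK8 (AT5G63610). Its level was 21.0, 23.1 and 24.4 TPM in the 3 Col-0 libraries with sulfate and 2.96, 4.01 and 4.99 TPM in the cdk8-1 libraries with sulfate. Without sulfate it was 33.3, 33.6 and 32.7 TPM in Col-0 and 5.19, 5.20 and 6.09 TPM in cdk8-1. Every cdk8-1 library lay below every Col-0 library at each supply. The libraries held 17508567 to 25274342 reads in genes, and 1 read in a locus of 1 kilobase was worth 0.0710 to 0.0962 TPM. Such depths bear on counting error only.

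Several libraries stood apart in ways that touch the members. Col-0 with sulfate replicate 1 was at least 1.5 times as high as both other libraries of its group at 12 of the 54 lower loci (22.2%), against 4.40% of all loci with a mean of at least 1 TPM. In cdk8-1 with sulfate replicate 1, the same held for 11 of the 54 lower loci (20.4%), against 5.16% of all loci. Both libraries stood above their groups at 5 of these loci. The 11 loci hold AT1G06957, listed at 0 in every library of cdk8-1 with sulfate. Summed TPM of 5 seed storage markers (CRA1, CRC, OLEO1, SESA1 and SESA3) reached 205 in cdk8-1 with sulfate replicate 1, against 0 to 3.91 elsewhere. Summed TPM of 8 root markers, among them CASP1, EXPA7 and IRT1, was 21.0 in cdk8-1 without sulfate replicate 1, against 1.76 to 7.84 in the other 11 libraries. Shoot markers led by RBCS1A and LHCA1 summed to 25868 to 28591 TPM with sulfate, but to 1329 to 1343 in Col-0 and 3397 to 4165 in cdk8-1 without it. The sum weighs the most abundant of the 6 markers most. Without sulfate, 5 of the 6 were lower in Col-0, against 28.8% of all loci (limma, Benjamini-Hochberg adjusted p below 0.05). In cdk8-1, 5 were lower and 1 was higher, against 24.7% and 56.9%. In whole shoots, fewer cells of a type and less RNA per cell cannot be told apart. The part of these differences in the values below was not tested.

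The 2 supplies share no library, and the members are the loci that met the rule at each. With sulfate, 97 loci (0.507% of 19127) met the rule as higher and 190 (0.993%) as lower in cdk8-1. Without sulfate, 1016 (5.31%) met it as higher and 801 (4.19%) as lower. Of the 97 loci higher with sulfate, 31 (32.0%) were also higher without it and 1 (1.03%) was lower. Of the 190 loci lower with sulfate, 62 (32.6%) were also lower without it and 10 (5.26%) were higher. These overlaps are what the rule selects and are given with no test. Taken from the other side, the 31 and 62 loci were 3.05% of those higher and 7.74% of those lower without sulfate.

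In the higher set the median difference on the log2(TPM + 1) scale was 1.18 with sulfate, from 1.00 to 4.13, and 1.49 without, from 1.00 to 3.51. In the lower set it was -1.56 with sulfate, from -4.57 to -1.02, and -1.62 without, from -4.30 to -1.0. The difference was larger without sulfate at 19 of the 30 higher loci and at 28 of the 54 lower loci. A difference of at least 2 at both supplies was reached by 2 higher loci, AT1G13609 and AT3G05955, and by 4 lower loci, AT3G05945, AT3G57880, AT3G44006 and AT4G01390. In 13 higher and 11 lower members at least 1 group mean was below 1 TPM, where the added 1 narrows the difference. Of those just inside the threshold, AT1G21520 was higher by 1.13 and 1.00, PME2 by 1.00 and 1.61, and RD26 was lower at -1.44 and -1.0, with and without sulfate. Just outside stood scpl31 at 0.99 and 1.26, AT2G21045 at 0.99 and 1.66, AT1G13360 at -0.99 and -1.2, and CAX7 at -1.02 and -1.0, the last short of -1 before rounding.

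**Figure D1:**
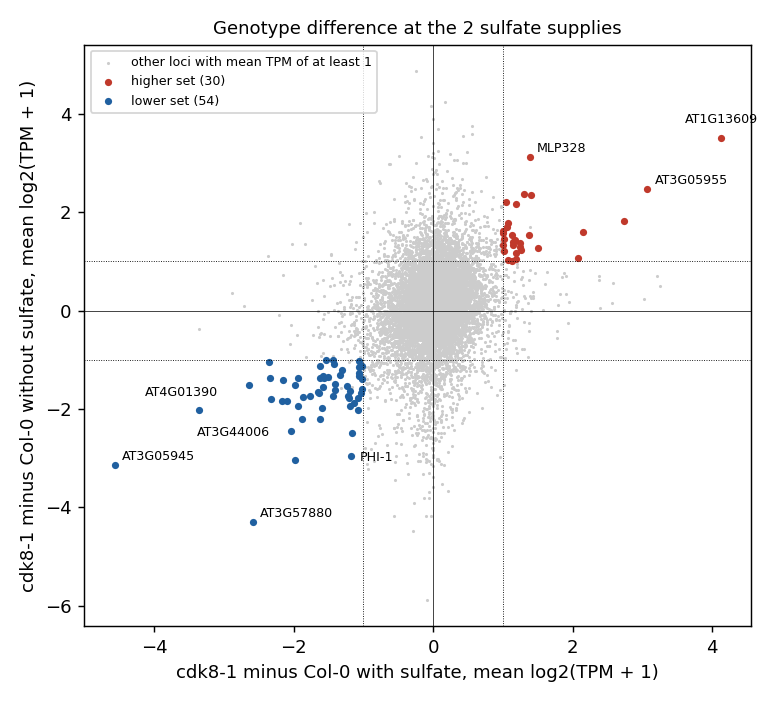
Genotype difference, cdk8-1 minus Col-0 in mean log2(TPM + 1) of 3 libraries each, with sulfate (horizontal) and without sulfate (vertical); each dot is a locus, red for the higher set, blue for the lower set and grey for other loci with a mean of at least 1 TPM. Dotted lines mark differences of 1 and -1; the members lie beyond them by the rule, and AT1G13609 at 4.13 and 3.51 and AT3G05945 at -4.57 and -3.14 lie farthest out on the horizontal axis.

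The annotation of the members can be set beside that of all loci tested. Loci of the annotation classes long non-coding RNA, ncRNA and antisense RNA were 8 of 84 members (9.52%), against 1.76% of the loci tested. Of these members, 5 were higher and 3 lower. Some of these rest on few reads. With sulfate, AT1G08293 held 0 to 2 reads in Col-0 libraries and 4 to 7 in cdk8-1, and AT1G06957 held 5 to 14 and 0. Chromosome 1 held 32 members (38.1%, against 26.3% of loci tested) and chromosome 5 held 13 (15.5%, against 23.3%). Members that lay next to each other in the annotation were AT1G47395 and AT1G47400 in the higher set, and AT2G06355 and AT2G15042 in the lower set. Another 2 lower pairs, AT1G72910 with AT1G72940 and AT1G76600 with CML38, were each separated by 4 loci. These shares are descriptions without a test.

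The stretch before the start of each locus was searched for short DNA elements that are known in plant promoters. In the 250 bases before the annotated start, the G-box CACGTG, a palindrome bound by many bHLH and bZIP factors, stood in 9 of the 54 lower loci (16.7%) and 2 of the 30 higher loci (6.67%), against 7.27% of all 19127. The W-box (TTGACC or TTGACT), known as the site of WRKY factors, stood in 33.3% of either set, against 28.2%. Shares for TGACG were 20.0% of higher and 20.4% of lower loci, against 19.3%, and for GCCGCC 3.33% and 1.85%, against 2.07%. The evening element AAAATATCT was found in 0% and 5.56%, against 2.5%, and the sulfur-responsive core GAGAC in 13.3% and 31.5%, against 25.2%. Each element was searched on both strands. The W-box and TGACG both hold TGAC but differ in the base after it, so that the same TGAC was never counted for both. A match describes letters and does not show binding. The 2 higher loci with a G-box and 3 of the 9 lower ones are printed, because the G-box is the element whose share in the lower set stood farthest above that of all loci, together with the promoter of AT1G13609, the most strongly higher member, with 4 W-boxes. Sequences are from the RefSeq TAIR10.1 genome, read 5′ to 3′ on the strand of the locus and ending 1 base before its annotated start, with the G-box or, in AT1G13609, the W-box in capitals (AGTCAA is its reverse complement). They are AT5G05250 (chr5:1558487-1558596, minus strand), AT1G68110 (chr1:25524608-25524717, plus), NAC032 (chr1:29099729-29099838, plus), ERF-1 (chr4:9759093-9759202, plus), AT4G16146 (chr4:9144584-9144693, minus) and AT1G13609 (chr1:4662468-4662697, plus).
AT5G05250: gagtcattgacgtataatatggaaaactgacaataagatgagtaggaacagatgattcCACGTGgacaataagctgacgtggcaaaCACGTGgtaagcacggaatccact
AT1G68110: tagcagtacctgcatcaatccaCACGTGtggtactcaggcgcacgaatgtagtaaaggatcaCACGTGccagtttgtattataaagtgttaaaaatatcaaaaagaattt
NAC032: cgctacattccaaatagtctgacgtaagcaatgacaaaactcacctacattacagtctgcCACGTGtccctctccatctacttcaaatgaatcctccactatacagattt
ERF-1: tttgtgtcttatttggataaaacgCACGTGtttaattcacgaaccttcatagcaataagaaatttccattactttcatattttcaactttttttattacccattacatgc
AT4G16146: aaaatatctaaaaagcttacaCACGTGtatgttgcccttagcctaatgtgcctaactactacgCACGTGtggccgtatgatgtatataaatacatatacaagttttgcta
AT1G13609: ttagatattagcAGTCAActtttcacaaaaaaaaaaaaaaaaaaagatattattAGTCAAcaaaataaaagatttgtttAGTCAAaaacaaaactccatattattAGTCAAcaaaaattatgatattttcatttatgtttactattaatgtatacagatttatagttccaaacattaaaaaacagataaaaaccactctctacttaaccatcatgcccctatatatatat

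In AT5G05250 the G-boxes begin 52 and 24 bases before the start, and in AT1G68110 they begin 88 and 48 bases before it. In the lower set they begin 50 bases before the start in NAC032, 86 in ERF-1, and 89 and 47 in AT4G16146. The other 6 lower loci with a G-box in the window are FBS1, NAP, AT2G15960, CYP71B22, DIN11 and AT3G57880.

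Among the loci higher in cdk8-1, the largest difference at each supply was that of AT1G13609. It encodes a defensin-like protein, a small cysteine-rich secreted peptide. It stood at 3.84, 13.5 and 8.56 TPM in Col-0 and at 169, 106 and 196 TPM in cdk8-1 with sulfate. Without sulfate it was listed at 0 in all 3 Col-0 libraries and stood at 11.1, 8.03 and 12.4 TPM in cdk8-1. Thus the mutant without sulfate was at about the level of the wild type with sulfate. A further gene for a secreted peptide, AT4G37810, an EPIDERMAL PATTERNING FACTOR-like peptide gene of the family that sets stomatal density and growth, was lower in level. It stood at 2.14, 0.381 and 0.552 TPM in Col-0 and 3.67, 2.74 and 3.61 TPM in cdk8-1 with sulfate, and at 0.988, 0.513 and 0.396 and 6.22, 5.80 and 6.63 TPM without. Its difference was 1.19 with sulfate and 2.16 without.

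**Figure D2:**
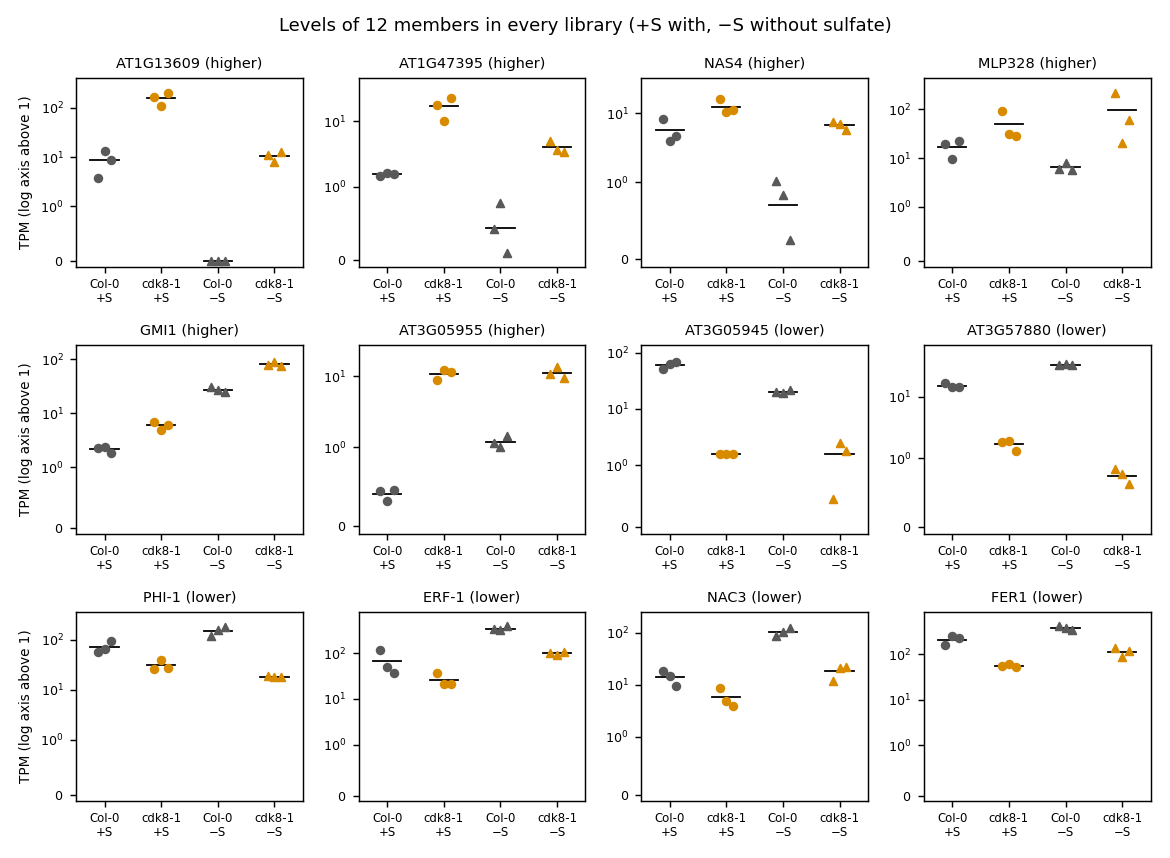
TPM of 12 members in each library (points; grey Col-0, orange cdk8-1, circles with and triangles without sulfate) with the mean of 3 libraries (bar), on an axis that is linear from 0 to 1 and logarithmic above. AT1G13609 is at 0 in Col-0 without sulfate, and MLP328 spreads from 20.1 to 212 TPM within cdk8-1 without sulfate.

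Iron genes were found in both sets. AT1G47395 and AT1G47400, adjacent loci that RefSeq calls uncharacterized and that stand in the list of genes raised by iron deficiency, were higher in cdk8-1. AT1G47395 stood at 1.44, 1.64 and 1.58 TPM in Col-0 and 18.1, 9.98 and 22.6 TPM in cdk8-1 with sulfate, and at 0.426, 0.774 and 0.0852 and 4.96, 3.69 and 3.40 TPM without. AT1G47400 stood at 1.23, 2.41 and 1.17 and 13.2, 6.19 and 13.1 TPM with sulfate, and at 0.341, 0.236 and 0.273 and 4.44, 3.64 and 1.33 TPM without. In both genotypes the 2 neighbours were lower without sulfate than with it. NAS4, a nicotianamine synthase, makes the metal chelator that moves iron and copper between cells. It stood at 8.22, 3.91 and 4.69 TPM in Col-0 and 15.8, 10.2 and 10.9 TPM in cdk8-1 with sulfate, and at 1.04, 0.830 and 0.246 and 7.40, 7.0 and 5.76 TPM without.

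The opposite direction was seen at NAS3 and FER1 in the lower set. NAS3, another nicotianamine synthase, stood at 22.0, 21.2 and 8.17 TPM in Col-0 and 4.87, 3.77 and 4.68 TPM in cdk8-1 with sulfate. Without sulfate it stood at 114, 95.6 and 78.1 and 25.8, 16.6 and 18 TPM. The 2 synthases therefore differed in opposite directions at both supplies, by 1.04 and 2.20 for NAS4 and by -1.63 and -2.20 for NAS3. NAS4 no longer met the rule after median-of-ratios scaling, or when any 1 of 3 libraries with sulfate was left out. NAS3 met it in each of these cases. FER1, a plastid ferritin that stores iron, stood at 160.3, 247 and 223 TPM in Col-0 and 55.4, 60.5 and 51.6 TPM in cdk8-1 with sulfate. Without sulfate it stood at 417, 375 and 347 and 137, 86.6 and 116 TPM, a difference of -1.76 after -1.87 with sulfate.

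The other 12 tested genes of the iron list were also tested for genotype. They are the remainder after genes that met the rule at both supplies were taken out. Their counts at the 2 supplies are therefore not free of the rule, and the same holds for the other lists below. With sulfate, 9 were higher and 1 lower in cdk8-1 (limma, Benjamini-Hochberg adjusted p below 0.05), against 8.85% and 4.84% of all loci. Without sulfate, 2 were higher and 2 lower, against 26.3% and 15.0%. The largest differences were those of bHLH38, bHLH39 and BHLH100, transcription factors that activate iron uptake. The mean level of bHLH38 with sulfate was 0.465 ± 0.321 TPM in the wild type against 13.2 ± 5.68 TPM in the mutant (mean ± SD, n = 3), a log2(TPM + 1) difference of 3.21 ± 0.29 (SE; limma adjusted p = 5.9e-05). Without sulfate it was listed at 0 in every Col-0 library and stood at 0.653 ± 0.434 TPM in cdk8-1, and the difference of 0.69 ± 0.29 did not pass (limma adjusted p = 0.078). FRO3, a ferric reductase, and OPT3, an iron and oligopeptide transporter, were the 2 higher at both supplies. FRO3 differed by 0.86 ± 0.16 with sulfate (limma adjusted p = 0.0049) and by 1.40 ± 0.16 without (adjusted p = 2.4e-05). FER4, a further ferritin, was lower at both, by -1.0 ± 0.10 (limma adjusted p = 0.00015) and -0.72 ± 0.10 (adjusted p = 0.00015). Of the 9 list genes that were higher with sulfate, 7 did not pass as higher without it. Taking out the 3 higher members, which meet the rule at both supplies by choice, favours such a split.

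GMI1, a gene of DNA repair named for its response to gamma irradiation and mitomycin C, was the 1 member in the list of DNA damage genes. It stood at 2.27, 2.41 and 1.81 TPM in Col-0 and 6.81, 4.99 and 6.08 TPM in cdk8-1 with sulfate, and at 30.3, 26.8 and 24.3 and 76.6, 89.5 and 75.6 TPM without. Its level went up without sulfate in both genotypes, and no library of one supply overlapped the other. Of the other 9 tested genes of that list, 1 was higher in cdk8-1 with sulfate (TSO2, a ribonucleotide reductase subunit) and all 9 were higher without it (limma adjusted p below 0.05), against 8.85% and 26.3% of all loci. The call of TSO2, a difference of 0.62 ± 0.18 (limma adjusted p = 0.04), was lost after median-of-ratios scaling and in 10 of 12 fits that each left out 1 library. PARP2, a poly(ADP-ribose) polymerase, differed by 0.19 ± 0.12 with sulfate (limma adjusted p = 0.34) and by 1.99 ± 0.12 without (adjusted p = 1.4e-07). GMI1 was thus the gene of this list with a difference of at least 1 at both supplies.

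Regulators and receptors formed a small part of the higher set. BRG2 and BRG3 are relatives of BOI, a RING-type ubiquitin ligase that restrains cell death. BRG2 stood at 6.14, 6.90 and 8.18 TPM in Col-0 and 21.5, 20.0 and 23.7 TPM in cdk8-1 with sulfate, and at 21.6, 19.9 and 22.6 and 50.7, 52.7 and 54.9 TPM without. BRG3 stood at 16.4, 27.0 and 24.2 and 47.5, 52.0 and 54.7 TPM with sulfate, and at 14.7, 15.3 and 15.4 and 37.1, 35.5 and 33.9 TPM without. BRG2 was higher without sulfate in both genotypes, and BRG3 was lower. PISTILLATA (PI), the MADS-box factor of petal and stamen identity, was near or below 1 TPM in every Col-0 library, at 0.614, 0.589 and 0.948 TPM with and 0.475, 0.917 and 0.490 TPM without sulfate. In cdk8-1 it stood at 2.77, 3.11 and 3.35 and 2.87, 2.78 and 2.68 TPM. NTT, a zinc-finger factor of the transmitting tract of the pistil, differed by 1.08 and 1.03. AT5G56040, a leucine-rich repeat receptor-like kinase, stood at 7.78, 10.9 and 13.7 TPM in Col-0 and 28.5, 26.8 and 32.1 TPM in cdk8-1 with sulfate, and at 7.16, 7.71 and 6.85 and 20.4, 24.1 and 24.4 TPM without.

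Enzymes and storage-like proteins included AT1G73600, the member of the higher set with the highest mean level in each group other than Col-0 without sulfate, annotated as a methyltransferase that uses S-adenosylmethionine. It stood at 286, 187 and 113 TPM in Col-0 and 601, 442 and 344 TPM in cdk8-1 with sulfate. Without sulfate it stood at 242, 182 and 127 and 1159, 828 and 824 TPM. Libraries within a group differed widely, and with sulfate the lowest cdk8-1 value lay close above the highest Col-0 value. XCP1, a cysteine peptidase of xylem vessels, stood at 20.0, 16.4 and 18.9 and 41.7, 38.5 and 38.2 TPM with sulfate, and at 5.02, 5.21 and 4.02 and 21.4, 15.1 and 16.6 TPM without. PME2, a pectin methylesterase of the cell wall, and AT1G62290, a saposin-like aspartyl protease, differed by 1.00 and 1.61, and by 1.02 and 1.45. JAL31, a jacalin-related lectin, differed by 1.01 and 1.33.

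In cdk8-1 without sulfate replicate 1, 4 higher loci stood at least 1.5 times above both other libraries of the group (13.3%, against 3.42% of all loci). They were MLP328, AT3G32980, AT1G66800 and the RNA locus AT1G31935. Such a count was not particular to this library. Col-0 without sulfate replicate 2 was also counted at 4 higher loci (13.3%, against 1.49% of all loci). Among those was AT1G13609, listed at 0 in every library of that group. MLP328, a major latex protein-like gene, stood at 19.2, 9.44 and 22.4 TPM in Col-0 and 91.0, 31.5 and 28.5 TPM in cdk8-1 with sulfate. Without sulfate it stood at 5.84, 7.92 and 5.71 TPM in Col-0 and 212, 20.1 and 58.7 TPM in cdk8-1. The peroxidase gene AT3G32980 stood at 22.8, 25.2 and 31.2 and 90.0, 53.8 and 52.9 TPM with sulfate, and at 33.8, 37.5 and 34.5 and 136, 67.3 and 87.2 TPM without. Replicate 1 was thus the highest cdk8-1 library at either supply for both genes. The same held for AT1G66800, of the Rossmann-fold family, at 0.132, 0.0703 and 0.204 and 2.64, 1.01 and 1.18 TPM with sulfate, and at 0.146, 0.759 and 0.702 and 6.02, 1.1 and 2.64 TPM without. AT1G31935 stood at 6.51, 7.10 and 7.02 and 15.2, 13.6 and 15.8 TPM with sulfate, where no cdk8-1 library stood apart, and at 2.85, 1.57 and 1.61 and 8.18, 5.07 and 4.64 TPM without. When cdk8-1 with sulfate replicate 1 was left out, MLP328, AT1G66800 and AT1G31935 no longer met the rule. AT1G66800 and AT1G31935 also failed it when cdk8-1 without sulfate replicate 1 was left out. AT3G32980 met it whichever library was left out. Root markers summed to 21.0 TPM in cdk8-1 without sulfate replicate 1 and to 5.53 and 7.84 TPM in the other 2 libraries of that group. In cdk8-1 with sulfate they summed to 7.07 TPM in replicate 1 and to 5.24 and 4.87 TPM in the other 2, and in Col-0 without sulfate to 2.32 to 3.86 TPM. In cdk8-1 without sulfate replicate 1, CASP1 stood at 12.9 TPM, against 0.526 to 4.70 elsewhere, and IRT1 was at 0. The part of root tissue in MLP328, AT3G32980, AT1G66800 and AT1G31935 was not tested.

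The non-coding members of the higher set were AT3G05955, AT3G06355, AT2G08735, AT1G08293 and AT1G31935. AT3G05955 stood at 0.442, 0.314 and 0.455 TPM in Col-0 and 8.93, 12.2 and 11.5 TPM in cdk8-1 with sulfate, and at 1.14, 1.02 and 1.44 and 10.6, 13.6 and 9.37 TPM without. All 6 cdk8-1 values lay above all 6 Col-0 values. AT3G06355 was the most abundant of the 5, at 54.9, 52.7 and 73.6 and 116, 138 and 182 TPM with sulfate, and 130.5, 151 and 120.1 and 279.5, 385 and 328 TPM without. Of its exons, 32.7% are shared with an annotated ribosomal RNA locus on the same strand that is listed at 0 in every library, so its reads cannot be assigned with certainty. AT3G05955 has a counterpart in the lower set: AT3G05945, the non-coding locus with the largest lower difference with sulfate, lies on the same chromosome with 21 annotated loci between, of which 2 had a mean of at least 1 TPM.

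Another 6 protein-coding members had no role to group them by. AT5G05250, whose promoter with a pair of G-boxes is printed above, is annotated with no known function. It stood at 9.4, 6.83 and 5.78 TPM in Col-0 and 22.6, 16.8 and 23.7 TPM in cdk8-1 with sulfate, and at 0.414, 0.430 and 0.757 and 6.48, 6.47 and 7.24 TPM without. The ENTH-domain gene AT1G68110, the other higher locus printed with a pair of G-boxes, stood at 5.81, 5.42 and 7.37 and 11.9, 14.6 and 15.8 TPM with sulfate, and at 0.433, 0.836 and 0.297 and 3.36, 4.35 and 4.81 TPM without. AT1G21520 had the largest sulfate response of all members. It stood at 3.17, 3.29 and 4.54 TPM in Col-0 and 7.88, 6.45 and 14.8 TPM in cdk8-1 with sulfate, against 268, 298 and 276 and 559.8, 579.7 and 546 TPM without. AT1G11070, a hydroxyproline-rich glycoprotein, differed by 2.08 with sulfate and 1.07 without.

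**Figure D3:**
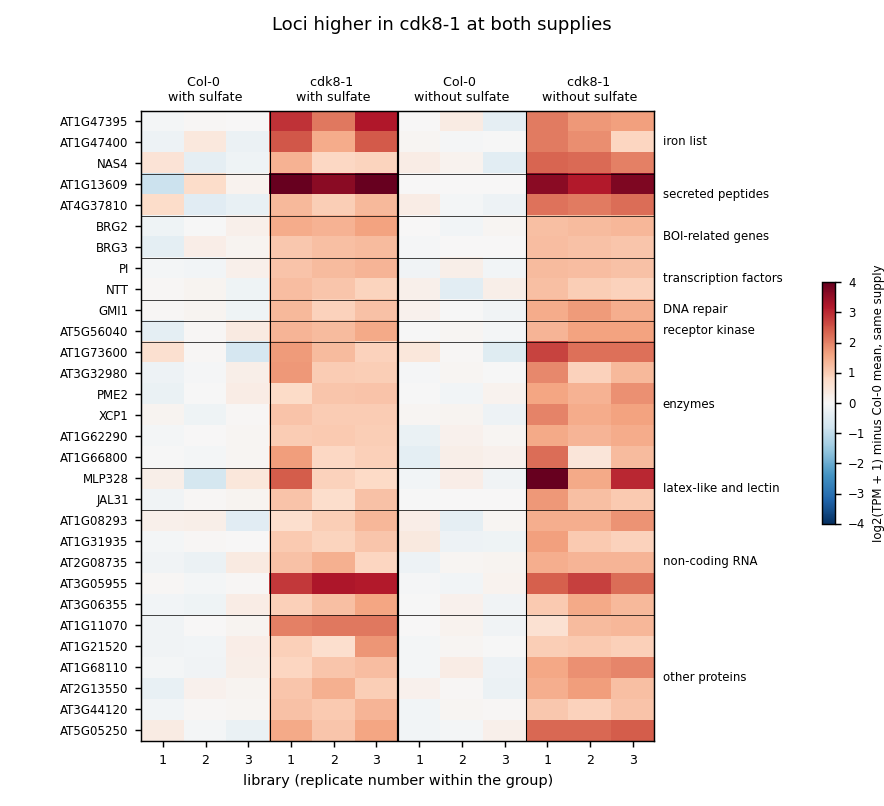
log2(TPM + 1) of the 30 higher loci in each library minus the mean of the 3 Col-0 libraries at the same supply (colour, capped at -4 and 4); rows are loci grouped by annotated role and columns are libraries, numbered by replicate. All cdk8-1 columns are red by the rule; the shade varies most between libraries at MLP328 and AT1G66800.

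In the lower set, transcription regulators were the largest group with a shared role, 12 of 54 loci, counting the scaffold protein BT5. Their share among all loci tested was not counted, so that this number does not show an excess. Among the 12 were 5 NAC factors, a family whose members named here act in senescence and in responses to abscisic acid, jasmonate and drought. NAC3, also known as ANAC055, stood at 18.3, 14.5 and 9.52 TPM in Col-0 and 8.81, 4.84 and 3.89 TPM in cdk8-1 with sulfate, and at 87.2, 103 and 124 and 11.9, 20.9 and 21.9 TPM without. Its difference was -1.16 with sulfate and -2.49 without. NAC032 stood at 4.40, 5.63 and 4.86 and 2.33, 1.64 and 1.60 TPM with sulfate, and at 22.6, 20.6 and 21.0 and 9.12, 6.98 and 8.95 TPM without. ATAF1 differed by -1.02 and -1.12, RD26 by -1.44 and -1.0, and the senescence regulator NAP by -1.24 and -1.54. Of ATAF1's exons, 22.5% overlap loci annotated on the other strand, so that its level is less certain.

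The 3 AP2/ERF factors were ERF-1, ERF5 and RAP2.9, of which ERF-1 and ERF5 bind the GCC-box of defence genes. ERF-1 stood at 119, 49.2 and 36.1 TPM in Col-0 and 35.9, 21.4 and 21.2 TPM in cdk8-1 with sulfate, and at 329, 312 and 388 and 98.2, 91.9 and 107 TPM without. The first Col-0 library with sulfate was 2.42 times as high as the next, and in ERF5 it was 3.54 times as high, with 15.7, 3.80 and 4.44 TPM in Col-0 and 2.72, 1.38 and 1.54 TPM in cdk8-1. Without sulfate, ERF5 stood at 8.58, 6.93 and 8.94 and 3.92, 3.03 and 3.05 TPM, with no library apart. RAP2.9 differed by -1.08 and -2.03. Without Col-0 with sulfate replicate 1, 43 of the 54 lower loci still met the rule, and the 11 that did not were ATAF1, NAC3, ERF-1, ERF5, WRKY18, BT5, FBS1, PUP18, ATSBT5.2, AT1G72910 and AT1G76600.

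The other regulators were WRKY18, a defence factor, MYBR1 (also known as MYB44), a factor in abscisic acid and stomatal responses, the zinc-finger factor ZAT6 and the BTB-TAZ scaffold protein BT5. WRKY18 stood at 23.0, 20.0 and 19.0 TPM in Col-0 and 8.57, 7.60 and 12.3 TPM in cdk8-1 with sulfate, and at 254, 297 and 270.3 and 113, 105 and 107 TPM without. Its cdk8-1 level without sulfate was above every library with sulfate while still below Col-0. MYBR1 stood at 121, 101 and 94.8 and 41.9, 37.9 and 34.8 TPM with sulfate, and at 257, 378 and 349 and 99.2, 106 and 85.9 TPM without, and 48.4% of its exons are overlapped by another locus. ZAT6 differed by -1.40 and -1.61. BT5 stood at 133, 63.5 and 63.5 TPM in Col-0 and 47.0, 40 and 29.8 TPM in cdk8-1 with sulfate, and at 21.8, 20.4 and 24.8 and 9.10, 11.4 and 11 TPM without, the 1 regulator of the 12 that was lower without sulfate in both genotypes.

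Calcium sensors and growth genes formed a further group. TCH3, a calmodulin-like protein named for its induction by touch, stood at 203, 235 and 203 TPM in Col-0 and 72.0, 69.5 and 71.4 TPM in cdk8-1 with sulfate, and at 357, 343 and 381 and 139, 128 and 152 TPM without. Its libraries lay close together within each group. Of TCH3's exons, 20.2% overlap loci annotated on the other strand, so that its level is less certain. CML38, a further calmodulin-like sensor, differed by -1.66 at the first supply and -1.65 at the second. EXO and PHI-1 belong to the EXORDIUM family, in which EXO is known to mediate brassinosteroid-promoted growth. EXO stood at 151, 156 and 177 and 75.0, 64.1 and 66.3 TPM with sulfate, and at 313, 524 and 533 and 141, 138 and 118 TPM without. PHI-1 stood at 58.0, 66.5 and 92.6 TPM in Col-0 and 26.6, 39.3 and 27.7 TPM in cdk8-1 with sulfate, and at 119, 155 and 178 and 18.5, 18.2 and 18.4 TPM without. The level of PHI-1 was thus higher without sulfate in every Col-0 library and lower in every cdk8-1 library.

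Genes of jasmonate and glucosinolate metabolism were represented by LOX4, CORI3 and ESM1. LOX4, a lipoxygenase that starts jasmonate synthesis, stood at 20.4, 10.3 and 5.82 TPM in Col-0 and 4.00, 1.61 and 1.56 TPM in cdk8-1 with sulfate. Without sulfate it stood at 67.0, 59.5 and 66.2 and 14.1, 11.5 and 14.4 TPM. CORI3, a coronatine-induced gene of the aminotransferase family, differed by -1.58 and -1.32. ESM1 modifies glucosinolate breakdown, favouring isothiocyanates over nitriles. It stood at 289.7, 319 and 190.0 TPM in Col-0 and 71.6, 60.6 and 49.5 TPM in cdk8-1 with sulfate, and at 45.5, 49.0 and 50.6 and 12.4, 11.1 and 14.9 TPM without. Of the other 11 tested genes in the jasmonate synthesis list, 0 were higher and 6 lower in cdk8-1 with sulfate, against 8.85% and 4.84% of all loci, and 3 were higher and 2 lower without (limma adjusted p below 0.05), which is near the 26.3% and 15.0% of all loci. OPCL1, a ligase of jasmonate synthesis, differed by -1.19 ± 0.21 with sulfate (limma adjusted p = 0.0037) and by 0.14 ± 0.21 without (adjusted p = 0.64). Of the other 6 tested jasmonate response markers, 0 were higher and 2 lower with sulfate, and 2 were higher and 1 lower without, the latter again near the shares of all loci.

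Immune-type and secreted proteins also occurred in the lower set. AT1G72910 and AT1G72940, which encode TIR-domain proteins of the kind found in immune receptors, differed by -1.02 and -1.60, and by -1.31 and -1.22. Between them lie 4 loci, none of them a member, and values are given here for 2 of these, AT1G72920 and AT1G72930. AT1G72920 differed by -0.61 ± 0.36 with sulfate (limma adjusted p = 0.29) and was lower in cdk8-1 by -1.34 ± 0.36 without (adjusted p = 0.01). AT1G72930 was lower in cdk8-1 by -1.02 ± 0.17 with sulfate (limma adjusted p = 0.0029) and by -0.66 ± 0.17 without (adjusted p = 0.0092). AT3G15356, a legume-type lectin, stood at 125, 188 and 137 TPM in Col-0 and 40.1, 57.4 and 58.0 TPM in cdk8-1 with sulfate, and at 31.5, 31.4 and 33.6 and 13.0, 9.70 and 13.5 TPM without. The subtilase ATSBT5.2 differed by -1.08 and -1.78, and the aspartyl protease AT5G37540 by -1.40 and -1.50. AT2G15042, a leucine-rich repeat protein, and its neighbour AT2G06355 were both lower, by -1.62 and -1.12 and by -2.34 and -1.36. All of AT2G06355's exons are overlapped by an annotated locus on the other strand.

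Transporters and enzymes formed another group of the lower set. SWEET10, a sugar exporter, stood at 3.48, 6.31 and 3.52 TPM in Col-0 and 0.753, 0.288 and 0.0725 TPM in cdk8-1 with sulfate, and at 8.99, 10.3 and 9.04 and 0.293, 0.240 and 0.288 TPM without. All 6 cdk8-1 libraries were below 1 TPM. The purine permease PUP18 differed by -1.04 and -1.68, and the MATE-type efflux gene AT3G23550 by -2.15 and -1.42. AT1G15125, annotated as a methyltransferase that uses S-adenosylmethionine, stood at 73.4, 112 and 97.0 and 15.5, 16.9 and 21.1 TPM with sulfate, and at 33.9, 31.3 and 40.2 and 8.36, 7.81 and 12.3 TPM without. It and AT1G73600, of the same broad superfamily, thus differed in opposite directions. Of AT1G15125's exons, 12.2% are shared with another locus on the same strand, so that its level is less certain. CYP71B22, a cytochrome P450, stood at 17.9, 26.9 and 21.7 and 4.32, 5.07 and 5.68 TPM with sulfate, and at 1.72, 2.60 and 5.30 and 0.0532, 0 and 0.0522 TPM without. The copper amine oxidase AT4G12290 differed by -1.14 and -1.88, the monooxygenase MO1 by -1.02 and -1.39, the pyruvate kinase family gene AT3G49160 by -1.58 and -1.56, and the oxygenase DIN11 by -1.76 and -1.74.

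At 5 further loci the cdk8-1 level was low or 0 at both supplies. AT3G05945, a non-coding locus, stood at 51.8, 62.5 and 67.2 TPM in Col-0 and 1.56, 1.57 and 1.58 TPM in cdk8-1 with sulfate, and at 20.2, 19.3 and 21.2 and 0.457, 2.44 and 1.79 TPM without. AT3G57880, a protein with calcium-dependent lipid-binding domains, stood at 16.8, 14.7 and 14.3 and 1.87, 1.94 and 1.33 TPM with sulfate, and at 32.6, 34.5 and 33.2 and 0.844, 0.779 and 0.621 TPM without. AT4G01390, a TRAF-like protein, stood at 26.7, 17.7 and 22.3 and 1.05, 1.50 and 1.21 TPM with sulfate, and at 3.66, 4.39 and 3.16 and 0.102, 0.167 and 0.200 TPM without. At these 3 the highest cdk8-1 library was below the lowest Col-0 library of the same supply with a wide gap. AT1G06957, a non-coding locus, was listed at 0 in all 6 cdk8-1 libraries and stood at 5.27, 4.01 and 1.94 TPM with and 3.33, 3.46 and 1.33 TPM without sulfate in Col-0. AT3G44006, uncharacterized, was listed at 0 in 4 of the 6 cdk8-1 libraries and stood at 2.05, 4.84 and 3.39 TPM with and 4.90, 4.96 and 4.13 TPM without sulfate in Col-0. No fold is given for these 2 loci, since the added 1 sets their log2 difference.

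**Figure D4:**
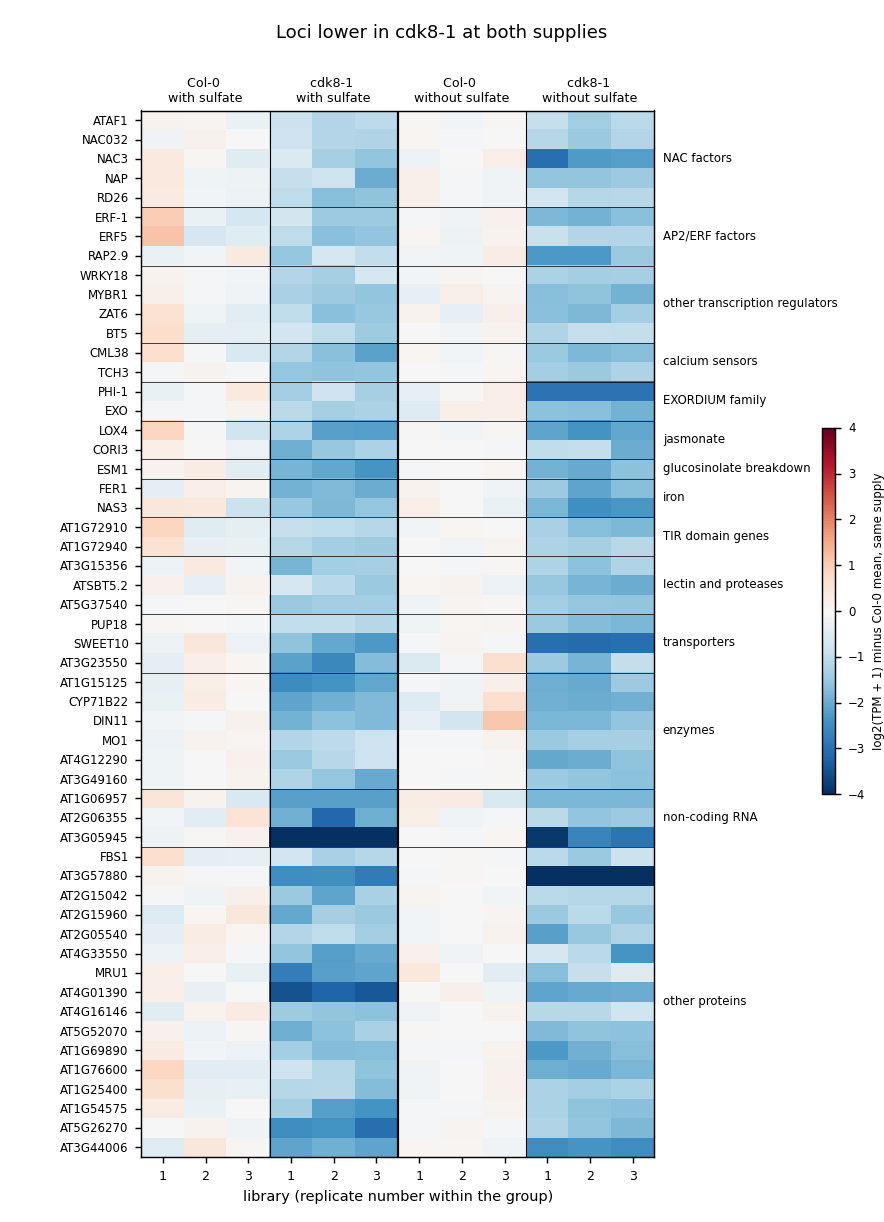
log2(TPM + 1) of the 54 lower loci in each library minus the mean of the 3 Col-0 libraries at the same supply (colour, capped at -4 and 4); rows are loci grouped by annotated role and columns are libraries, numbered by replicate. All cdk8-1 columns are blue by the rule, AT3G05945 and AT3G57880 most deeply, and Col-0 with sulfate replicate 1 stands above its group at 12 loci such as ERF-1, ERF5 and LOX4.

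The other loci of the lower set are named for completeness. FBS1, an F-box gene of stress responses, differed by -1.06 and -1.14, and MRU1 by -2.35 and -1.04. AT5G26270 differed by -2.64 and -1.52, AT1G54575 by -1.98 and -1.51, AT1G69890 by -1.59 and -1.98, and AT1G76600 by -1.2 and -1.93. AT4G33550, of the lipid-transfer family, differed by -1.93 and -1.37, and the glycine-rich protein AT2G05540 by -1.19 and -1.63. Differences of AT2G15960, AT5G52070, AT4G16146 and AT1G25400 lay between -1.01 and -1.68 at both supplies. In the higher set, AT2G13550 differed by 1.17 and 1.44, the F-box gene AT3G44120 by 1.19 and 1.05, and the RNA loci AT2G08735, AT1G08293 and AT1G31935 by 1.15 and 1.39, 1.00 and 1.57, and 1.01 and 1.2.

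The rule compared genotypes, not supplies, but it used the same group values that make up the response to sulfate withdrawal. Counts and p-values of members for this response are therefore not free of the rule. The response within each genotype was tested on the same 12 libraries. It was fitted with limma on log2(TPM + 1) over all 19127 loci, with Benjamini-Hochberg adjusted p below 0.05. The median locus was higher without sulfate by 0.46 in Col-0 and by 0.45 in cdk8-1 on the log2(TPM + 1) scale, and median-of-ratios scaling brought that shift to 0.03 in each. Changes of single loci are therefore given relative to the median locus, whereas their p-values refer to the change as deposited. Over all loci, 56.1% were higher and 28.8% lower without sulfate in Col-0, and 56.9% and 24.7% in cdk8-1. After scaling, the shares were 41.3% and 39.6% in Col-0, and 38.5% and 37.3% in cdk8-1.

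Of the 54 loci lower in cdk8-1, 36 (66.7%) were higher without sulfate and 11 (20.4%) lower in Col-0. In cdk8-1 itself, 32 (59.3%) were higher and 12 (22.2%) lower. After scaling, 32 were higher and 14 lower in Col-0 (59.3% and 25.9%), and 28 and 13 in cdk8-1 (51.9% and 24.1%). The share that rose in Col-0 was above that of all loci, by either scaling, and in cdk8-1 it stood near the background as deposited and above it after scaling. The median change relative to the median locus was 0.53 in Col-0 and 0.47 in cdk8-1.

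Of the 30 loci higher in cdk8-1, 10 (33.3%) were higher without sulfate and 14 (46.7%) lower in Col-0. In cdk8-1 itself, 11 (36.7%) were higher and 12 (40%) lower. After scaling, 7 were higher and 15 lower in Col-0 (23.3% and 50%), and 8 and 15 in cdk8-1 (26.7% and 50%). The share that fell was above that of all loci in either genotype and by either scaling. The median change relative to the median locus was -0.81 in Col-0 and -0.37 in cdk8-1. Between the 2 sets the balance of rises and falls thus differed in direction, as a description without a test.

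Over all loci, 51.9% were higher and 23.0% lower without sulfate in both genotypes. In the lower set 32 loci were higher and 9 lower without sulfate in both, 6 passed in neither, 5 passed in 1 genotype and 2 passed in opposite directions. In the higher set 9 were higher and 12 lower in both, 4 passed in neither and 5 passed in 1 genotype. The difference between the genotypes' responses was not tested for members, because the rule used both contrasts that make it up.

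By role, the 3 higher members of the iron list fell without sulfate in both genotypes, from -1.33 to -2.39 in Col-0 and from -1.22 to -2.22 in cdk8-1 relative to the median locus. Unless scaling is named, p-values below refer to the change as deposited, not to the value relative to the median locus. The 2 lower iron genes rose in both. NAS3 rose by 2.06 ± 0.30 (SE) in Col-0 relative to the median locus (limma adjusted p = 3.7e-06) and by 1.49 ± 0.30 in cdk8-1 (adjusted p = 4.9e-05). FER1 rose by 0.41 ± 0.17 and 0.54 ± 0.17 relative to the median locus. As deposited its changes were 0.87 and 0.99 (limma adjusted p = 0.00036 and 0.00014). After scaling they were 0.39 and 0.53 (limma adjusted p = 0.048 and 0.013). Of the 5 NAC genes, ATAF1, NAC032 and NAC3 rose in both genotypes, and NAP and RD26 passed in neither as deposited. NAC3 rose by 2.38 ± 0.29 in Col-0 (limma adjusted p = 9.9e-07) and by 1.06 ± 0.29 in cdk8-1 (adjusted p = 0.00036). After scaling its changes were 2.37 and 1.09 (limma adjusted p = 7.6e-06 and 0.0048). WRKY18 rose by 3.21 ± 0.13 and 2.96 ± 0.13 (limma adjusted p = 4.6e-11 and 1.7e-10), and BT5 fell by 2.28 ± 0.24 and 2.23 ± 0.24 (adjusted p = 1.3e-05 and 1.9e-05).

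The largest rises without sulfate in the lower set in Col-0 were those of AT4G12290, AT1G54575, WRKY18 and AT1G76600. Here too the changes are relative to the median locus and the p-values refer to the change as deposited. AT4G12290 rose by 3.77 ± 0.16 in Col-0 and 3.04 ± 0.16 in cdk8-1 relative to the median locus (limma adjusted p = 5.1e-11 and 5.1e-10). AT1G54575 rose most in cdk8-1, by 4.07 ± 0.23 (limma adjusted p = 1.6e-09). The largest falls in Col-0 were those of AT2G05540, AT3G23550, CYP71B22 and ESM1. ESM1 fell by 2.86 ± 0.18 and 2.60 ± 0.18 (limma adjusted p = 3.8e-08 and 1.6e-07). In the higher set AT1G21520 and GMI1 rose most, AT1G21520 by 5.47 ± 0.21 and 5.35 ± 0.21 (limma adjusted p = 3.5e-11 and 8.5e-11). GMI1 rose by 2.69 ± 0.12 and 3.11 ± 0.12 (limma adjusted p = 8.3e-11 and 6.3e-11). AT1G13609, AT5G05250, AT1G68110 and NAS4 fell most in Col-0, AT1G13609 by 3.59 ± 0.33 and in cdk8-1 by 4.20 ± 0.33 (limma adjusted p = 1.2e-06 and 2.7e-07), where the Col-0 value depends on the added 1.

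The 2 members that passed in opposite directions as deposited were PHI-1 and AT3G57880. After scaling AT3G05955 did so too, at 0.45 in Col-0 and -0.39 in cdk8-1 (limma adjusted p = 0.019 and 0.039). PHI-1 changed by 1.06 ± 0.18 (SE) in Col-0 (limma adjusted p = 0.00014) and by -0.71 ± 0.18 in cdk8-1 (adjusted p = 0.0032), before the shift of the median locus is taken off. AT3G57880 changed by 1.09 ± 0.12 in Col-0 (limma adjusted p = 1.4e-06) and by -0.63 ± 0.12 in cdk8-1 (adjusted p = 0.00023). Relative to the median locus the values were 0.60 and -1.16 for PHI-1, and 0.63 and -1.08 for AT3G57880, so that the signs were kept. Both levels thus moved apart between the genotypes without sulfate.

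**Figure D5:**
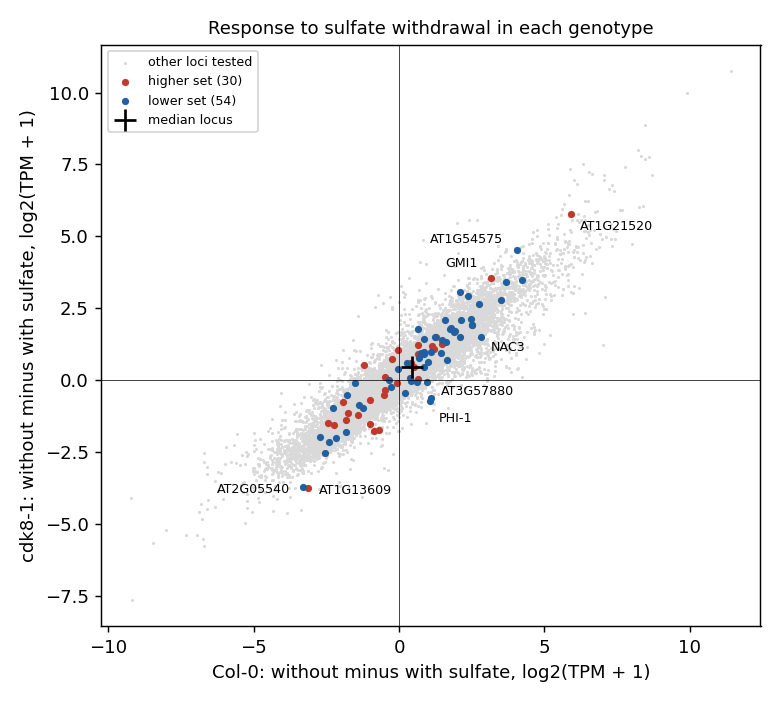
Change in log2(TPM + 1) without minus with sulfate in Col-0 (horizontal) and cdk8-1 (vertical) from the limma fit; each dot is a locus, red for the higher set, blue for the lower set, grey for other loci tested, and the cross marks the median locus at 0.46 and 0.45. PHI-1 and AT3G57880 lie at 1.06 and -0.71 and at 1.09 and -0.63.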

How the data were processed

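The authors deposited 1 table of TPM values for 32833 loci, with 1 column for each of 12 libraries made, per the labels, with a directional kit. The submitters' processing notes list DESeq2 1.46, featureCounts 2.0.8 and STAR 2.7.11b without saying what each did. The genome build is not given in the sources used here. With exonic lengths of RefSeq TAIR10.1, deposited values came out as whole reads (within 0.01 read) for 25759 loci, and these reads gave the depth. The members, gene lists and role groups were chosen with earlier results of these data known. Loci with a mean of at least 1 TPM were tested with limma 3.58.1 (R 4.3.3), fitted to log2(TPM + 1) (a mean per group, trended moderation, two-sided tests, Benjamini-Hochberg adjustment over 19127 loci, threshold 0.05), and the fit was tested on simulated data. Named genes are the largest shifts and responses, list members, neighbours and threshold cases of each set; the others were named after their values were seen. Gene lists reported are those that hold members (iron, DNA damage, jasmonate synthesis and response), with shoot, root and seed markers. Alternatives were the added constant, the minimum, scaling, a replicate block, voom on recovered reads and leaving out each library. Loci whose exons overlap others, 1 higher and 8 lower at 10% or more, are uncertain.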

Additional observations from a re-analysis of the deposited data

Results flagged for a closer look

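PHI-1, a gene of the EXORDIUM family in the lower set, moved in opposite directions in the 2 genotypes: without sulfate every Col-0 library was above every Col-0 library with sulfate, and every cdk8-1 library below every cdk8-1 library with sulfate. The change on the log2(TPM + 1) scale was 1.06 in Col-0 and -0.71 in cdk8-1. The lipid-binding protein gene AT3G57880, also in the lower set, showed the same pattern, with a change of 1.09 in Col-0 and -0.63 in cdk8-1. Because the rule used the genotype contrasts that make up this difference, the difference between the genotypes was not tested for either locus.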

How the results depend on the processing

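The size of the sets depended on the rule's own settings. With 0.1 added in place of 1 the higher set held 78 loci and the lower set 118, and with a difference of at least 2 they held 2 and 4. Leaving out 1 library in turn gave 27 to 40 higher and 51 to 73 lower loci, and 13 of the 30 and 32 of the 54 met the rule in every such fit. Median-of-ratios scaling gave 21 and 72 loci, among them 20 of the 30 and all 54. Over all loci, 1693 were called higher in cdk8-1 with sulfate, 837 after median-of-ratios scaling, 993 with quantile normalization and 1112 to 1654 without 1 library, the fewest without cdk8-1 with sulfate replicate 1 (1112) and replicate 3 (1113). Loci called lower without sulfate in cdk8-1 numbered 4730, and 7135 after scaling. With a minimum mean of 5 TPM, 20 members of the higher set were left, of which 6 were called higher without sulfate in Col-0 and 7 in cdk8-1. No member response called as deposited changed sign under any alternative. After scaling, which takes off the shift of the median locus, 8 of the 168 responses changed sign, and 2 of these passed in the new direction, that of PUP18 (AT1G57990) in Col-0 at -0.29 and that of AT3G05955 in cdk8-1 at -0.39. With quantile normalization 8 changed sign, with voom 2 and without 1 library 0 to 4, and none of these passed. The minimum of 5 TPM left 136 responses. Counts of called members in either set otherwise stayed within 1.5 times. Replicate numbers are not stated to pair samples, and deviations of same-numbered libraries correlated at -0.00 to 0.31, above 0.1 in 7 of 18 pairs. With the replicate number as a block, 165 of 168 member responses kept their call and 3 more passed, and 2109 loci were called higher in cdk8-1 with sulfate. Depth limits members near 1 TPM, where 1 read is worth 0.0710 to 0.0962 TPM per kilobase.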
